A study of Homo sapiens with 22 samples.

Results

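Cancer-testis genes are genes that adult testis transcribes and most other normal tissues do not, and that many carcinomas transcribe again. They were examined here together with genes of germ cell development in the established human cell line HN-6, which comes from a squamous carcinoma of the head and neck. A gene belonged to the set if its symbol began with MAGEA, MAGEB, MAGEC, GAGE, PAGE, XAGE, SSX, CTAG or TEX, or if it was 1 of 12 named germline genes (DAZL, MAEL, DDX4, SYCP1, SYCP3, BRDT, TDRD1, PIWIL1, PIWIL2, STK31, ASZ1 and DPEP3). The rule found 148 genes among 84469 gene symbols and identifiers over 4 tables. It used names and no measured value. It also took in genes that share only a prefix: SSX2IP, the 14 CTAGE genes and several TEX genes of broad expression.

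RNA was sequenced from 22 libraries in 8 groups, and interferon-β at 1000 U/ml was given to every group for 24 h before harvest, so no group lacked it. In HN-6 cells, UHRF1 was depleted with an siRNA for 72 h (siUHRF1, 3 libraries) against a negative control siRNA (siNC, 3 libraries). SMYD3 was depleted with the siRNA si1SMYD3 for 72 h (called siSMYD3 below, 3 libraries) against its own siNC (3 libraries), and with the antisense oligonucleotide ASO081 for 72 h (2 libraries) against phosphate-buffered saline, PBS (2 libraries). The SMYD3 knockout (KO) line 5-3 (3 libraries) was set against parental HN-6 (3 libraries). Only 1 siRNA, 1 oligonucleotide and 1 knockout line represent each kind of SMYD3 depletion. The series text calls the replicates biological, and the labels do not say what a replicate number marks. In such bulk samples, fewer cells that transcribe a gene and less RNA per cell cannot be told apart.

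SMYD3 is a lysine methyltransferase. UHRF1 binds hemimethylated DNA after replication and brings in DNMT1, the maintenance DNA methyltransferase. DNA methylation of CpG-rich promoters is a known means by which somatic cells keep germline and cancer-testis genes silent, and loss of methylation is known to switch many of them on. The MAGE, GAGE, SSX and CTAG families encode antigens presented to T cells, and MAGE proteins bind RING-type ubiquitin ligases.

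Depth and the targeted genes were checked first. Reads in genes per library ranged from 57588142 to 62921144 in the siUHRF1 comparison, from 32441991 to 54121262 in the siSMYD3 comparison, from 30792923 to 32045158 in the ASO081 comparison and from 24777802 to 47690298 in the knockout comparison. Levels below are CPM, read counts scaled to library totals adjusted by the trimmed mean of M-values (TMM), or, in the knockout comparison, the deposited normalised reads. UHRF1 averaged 2.23 ± 0.42 CPM with siUHRF1 and 64.5 ± 1.72 CPM with siNC (SD, n = 3 each). SMYD3 averaged 2.86 ± 0.21 CPM with siSMYD3 and 15.1 ± 1.69 CPM with siNC (SD, n = 3 each), 3.74 ± 0.64 CPM with ASO081 and 21.5 ± 0.69 CPM with PBS (SD, n = 2 each), and 93.6 ± 18.5 normalised reads in the KO line and 322 ± 18.3 in the parental line (SD, n = 3 each). UHRF1 itself fell with siSMYD3 (log2 fold change -1.67, adjusted p = 2.78e-07), and rose with ASO081 (0.36, adjusted p = 0.00121) and in the KO line (0.44, adjusted p = 8.75e-09). DNMT1 fell with siUHRF1 (-0.78, adjusted p = 7.57e-19). The 7 listed squamous epithelial markers summed to 1275 to 4131 CPM per library in the count tables, but were not all abundant. CDH1 had 296 to 2958 CPM and EPCAM 493 to 1245 CPM, while KRT14 had 0.194 to 1.91 CPM and KRT6A 2.76 to 8.72 CPM. Of 10 markers of germ cells and testis, PRM1, PRM2, TNP1 and NANOG had 0 reads in the siUHRF1 comparison. AMH had 169, 180 and 151 reads with siUHRF1, against 1165, 1176 and 1045 with siNC. POU5F1 had 6, 4 and 4 reads with siUHRF1, against 0, 0 and 0 with siNC. ACRV1, SPEM1, NANOS3 and INSL3 had at most 14 reads in any library.

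Most of the set had few or no reads, in depleted and control libraries alike. A gene was tested in a comparison if it had 10 or more reads in all libraries of a group. That held for 29 of 147 listed members in the siUHRF1 comparison, 34 of 144 in the siSMYD3 comparison, 32 of 147 in the ASO081 comparison and all 30 in the shorter knockout table. Over the 4 comparisons 37 members were tested at least once, 26 in all 4 and 111 in none, and 55 members had 0 reads in every library of every table that lists them. None of the 24 GAGE, PAGE and XAGE genes was tested or is listed in the knockout table, and 20 of them had 0 reads wherever listed. Of 17 SSX genes 13 had 0 reads wherever listed. SSX1 alone was tested, and it alone of these is in the knockout table. The 118 members under the limit in the siUHRF1 comparison together had 114, 114 and 103 reads in the siUHRF1 libraries, against 116, 89 and 107 reads in the siNC libraries. The 110 members under the limit in the siSMYD3 comparison had 146, 85 and 108 reads with siSMYD3, against 186, 72 and 155 with siNC. The 115 in the ASO081 comparison had 69 and 82 reads with ASO081, against 93 and 98 with PBS. These sums overlapped between siUHRF1 and siNC and between siSMYD3 and siNC, and were lower with ASO081 than with PBS. A count of 0 in a library of the siUHRF1 comparison allows a level of up to 0.0538 CPM (3 reads), which covers counting error only. Of the counts between 1 and 20 in that table, 71.2% to 73.1% were even, against 38.7% to 40.0% in the other 2 count tables. Whether each fragment was counted more than once was not tested. With all counts of that table halved, 16 members were called, as with the counts as deposited, and a count of 0 would allow up to 0.108 CPM.

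The tested members moved in both directions in each comparison. With siUHRF1, 3 of 29 tested members rose and 13 fell, beside 33.2% of all 17918 features called higher, 33.9% called lower and 67.0% called in either direction (a call is an adjusted p under 0.05). With siSMYD3, 4 of 34 rose and 7 fell, beside 25.9% of 18444 features higher, 24.5% lower and 50.4% in either direction. With ASO081, 9 of 32 rose and 1 fell, beside 11.6% of 18051 features higher, 10.6% lower and 22.2% in either direction. In the KO line, 16 of 30 rose and 9 fell, beside 42.5% of 16786 features higher, 42.8% lower and 85.3% in either direction. By edgeR on the recovered reads the KO line had 12 members higher and 12 lower with upper quartile factors, against 16 and 10 with TMM factors, and 5383 features higher and 9014 lower, against 6920 and 7471. All depleted libraries lay above all controls in 34.5% of features with siUHRF1, 29.6% with siSMYD3, 31.1% with ASO081 and 43.0% in the KO line, and below them in 35.5%, 28.6%, 31.6% and 43.3%, which is the background for each statement below that groups did not overlap. The median log2 fold change of the tested members was -0.16 with siUHRF1, -0.09 with siSMYD3, 0.19 with ASO081 and 0.42 in the KO line, against -0.01, -0.00, -0.00 and -0.02 over all features tested. Because the limit can be passed through the higher group alone, these counts describe the tested members only: TEX37 with siUHRF1, MAGEA8-AS1, MAGEB6 and TEX41 with siSMYD3, TEX101 and TEX37 with ASO081, and BRDT, MAGEB6, SSX1 and TEX19 in the KO line passed in the depleted group only, while BRDT, TEX37 and TEX48 passed only in the siNC libraries of the siSMYD3 comparison and TEX101 and TEX21P only in the parental line.

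**Figure D1:**
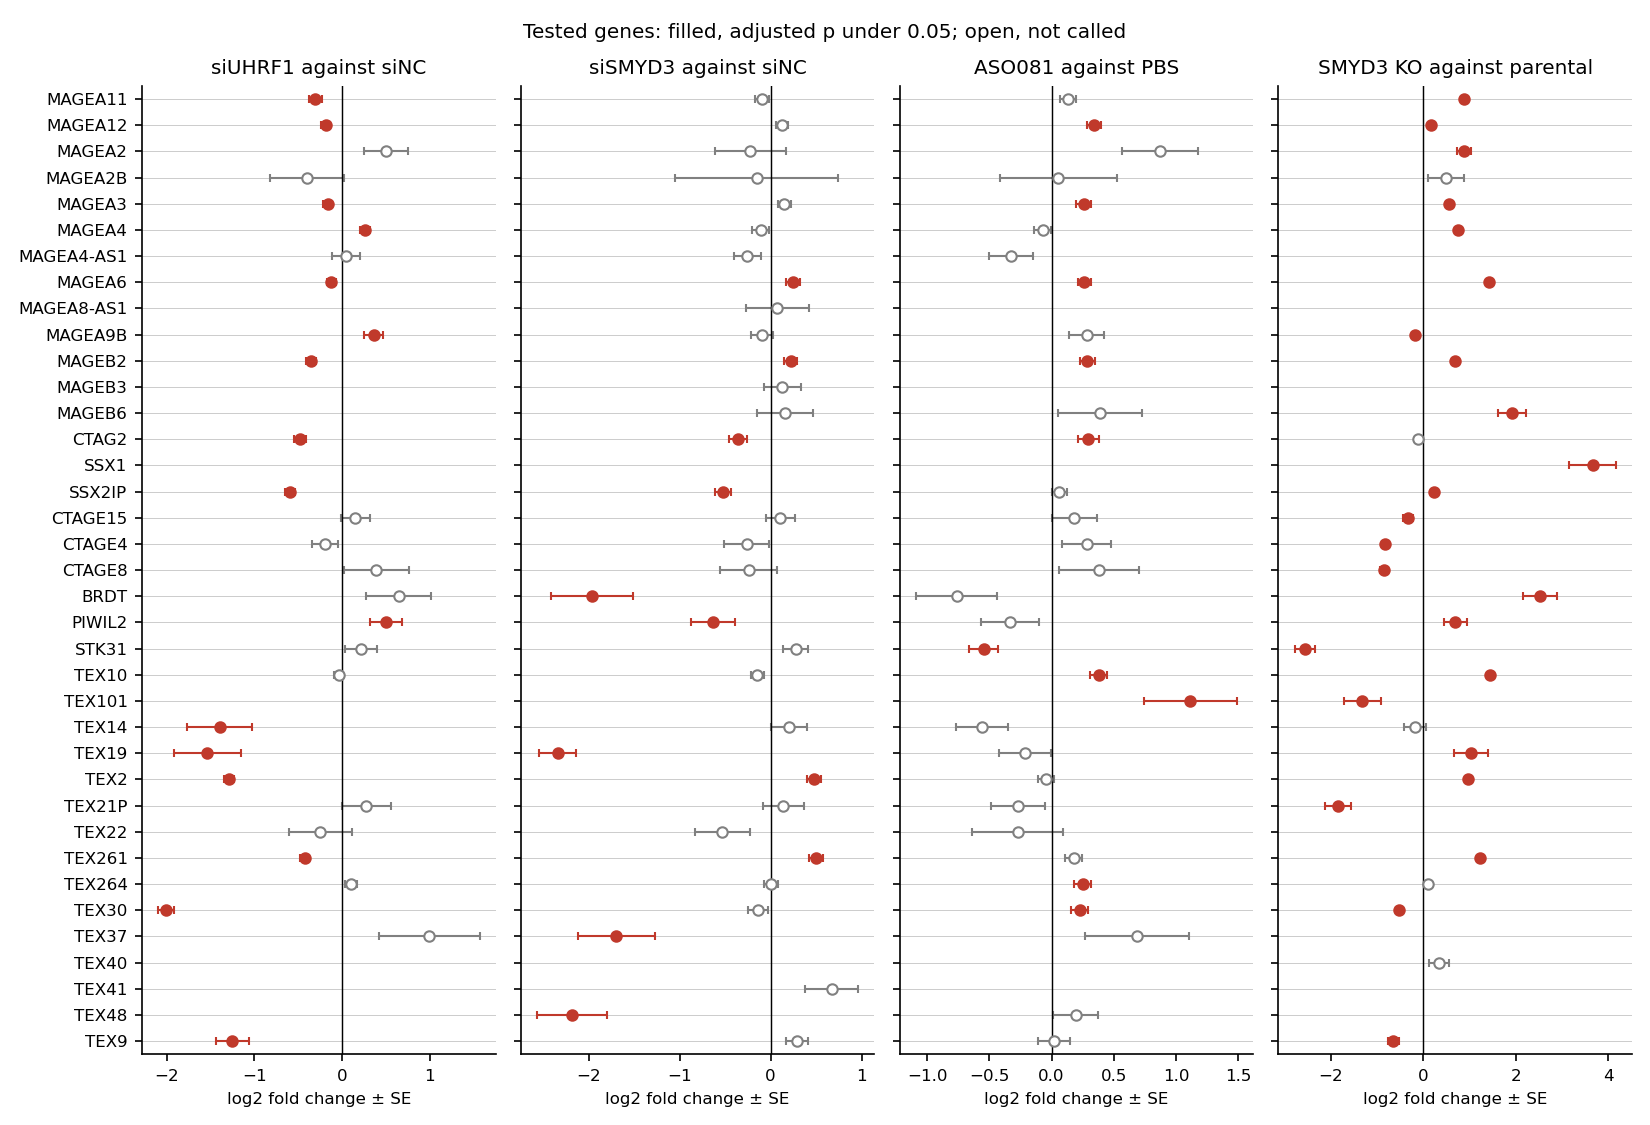
Log2 fold change (x axis, bars are standard errors) of each tested gene (rows) in the 4 comparisons, filled where the adjusted p was under 0.05 and open otherwise. TEX30 lies farthest left with siUHRF1 at -2.01, TEX19 with siSMYD3 at -2.34 and STK31 in the KO line at -2.56, and SSX1 lies farthest right in the KO line at 3.66; the x axes differ between panels.

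The MAGE genes were the most abundant antigens. Scaled by gene length, MAGEA3 averaged 51.0 RPKM (CPM per kilobase) with siUHRF1 and 57.1 RPKM with siNC, followed in the siNC libraries by MAGEB2 at 37.9, MAGEA12 at 36.9, MAGEA6 at 33.6 and CTAG2 at 28.4 RPKM. MAGEA3 and MAGEA6 lie on opposite strands of chromosome X and share 50-base stretches over 54.9% of the MAGEA3 transcripts, so reads can be split between them. Their promoters are shown because the fitted changes of both genes had the same sign in every comparison. MAGEA12 and MAGEB2 had these signs as well, so they are not particular to the pair. Whether promoter sequence or shared reads play a part in them was not tested. RefSeq (GRCh38.p14) places the 150 bases before the start of MAGEA3 at chrX:152698644-152698793 on the plus strand and those of MAGEA6 at chrX:152769690-152769839 on the minus strand, and the 2 sequences differed at 0 of 150 bases (5′ to 3′, CpG sites in capitals, 13 in each).
MAGEA3: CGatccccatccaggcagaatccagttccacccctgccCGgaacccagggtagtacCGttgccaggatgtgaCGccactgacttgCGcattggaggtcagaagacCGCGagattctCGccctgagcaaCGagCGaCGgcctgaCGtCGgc
MAGEA6: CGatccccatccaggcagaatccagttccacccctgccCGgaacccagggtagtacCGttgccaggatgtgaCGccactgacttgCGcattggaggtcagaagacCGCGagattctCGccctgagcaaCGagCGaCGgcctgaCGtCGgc

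With UHRF1 depleted, the abundant MAGE genes fell slightly and MAGEA4 and MAGEA9B rose slightly. Summed over the family, MAGE genes stood at 306, 336 and 329 CPM in siUHRF1 libraries, against 366, 351 and 357 CPM in siNC libraries, and the groups did not overlap. MAGEA3 had 85.3, 93.3 and 92.5 CPM with siUHRF1, against 104, 97.4 and 102 CPM with siNC, every siUHRF1 library lying below every siNC library (log2 fold change -0.16 ± 0.05 SE, adjusted p = 0.00393). MAGEB2 had 44.7, 49.5 and 48.8 CPM with siUHRF1, against 61.0, 59.8 and 62.1 CPM with siNC (-0.35 ± 0.05, adjusted p = 8.9e-08). MAGEA11 (-0.30 ± 0.07, adjusted p = 0.000185), MAGEA12 (-0.19 ± 0.05, adjusted p = 0.00144) and MAGEA6 (-0.12 ± 0.05, adjusted p = 0.0403) fell as well. MAGEA4 had 31.3, 34.3 and 33.1 CPM with siUHRF1, against 26.8, 27.4 and 28.3 CPM with siNC, all siUHRF1 libraries being higher (0.26 ± 0.06, adjusted p = 0.000218). MAGEA9B averaged 8.21 ± 1.08 CPM with siUHRF1 and 6.39 ± 0.52 CPM with siNC (SD, n = 3 each; 0.36 ± 0.11, adjusted p = 0.0028). MAGEA2 (0.50, adjusted p = 0.0832), MAGEA2B (-0.40, adjusted p = 0.412) and MAGEA4-AS1 (0.04, adjusted p = 0.82) did not pass the test. The call for MAGEA6 did not hold in 6 of the alternative settings (adjusted p from 0.0543 to 0.18), and that for MAGEA9B was lost without siUHRF1 replicate 2 (adjusted p = 0.0563).

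With siSMYD3, 2 of 13 tested MAGE genes rose, MAGEA6 and MAGEB2. The MAGE sum was 366, 368 and 383 CPM with siSMYD3, against 345, 337 and 341 CPM with siNC. MAGEA6 had 61.6, 64.5 and 63.3 CPM with siSMYD3, against 56.6, 53.7 and 49.4 CPM with siNC, with no overlap (0.25 ± 0.08, adjusted p = 0.0128). MAGEB2 had 62.1, 66.8 and 67.3 CPM with siSMYD3, against 53.5, 57.3 and 57.8 CPM with siNC (0.22 ± 0.07, adjusted p = 0.0208). MAGEA3 (0.15, adjusted p = 0.0878) and MAGEA12 (0.12, adjusted p = 0.157) were higher in every siSMYD3 library without passing the test. The other 9 tested MAGE genes did not pass either (adjusted p between 0.166 and 0.905). Their log2 fold changes were -0.26 for MAGEA4-AS1, -0.22 for MAGEA2, -0.15 for MAGEA2B, -0.11 for MAGEA4, -0.10 for MAGEA11, -0.09 for MAGEA9B, 0.07 for MAGEA8-AS1, 0.13 for MAGEB3 and 0.15 for MAGEB6. MAGEB2 lost its call in 6 alternative settings (adjusted p from 0.0526 to 0.0978) and MAGEA6 without siNC replicate 3 (adjusted p = 0.0843).

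ASO081 raised 4 of 11 tested MAGE genes. The MAGE sum was 511 and 522 CPM with ASO081, against 430 and 444 CPM with PBS. MAGEA12 had 101 and 99.4 CPM with ASO081, against 76.7 and 81.6 CPM with PBS (0.34 ± 0.06, adjusted p = 0.0012). MAGEA3 had 147 and 153 CPM with ASO081, against 121 and 129 CPM with PBS (0.26 ± 0.06, adjusted p = 0.00763), MAGEA6 averaged 98.1 ± 0.66 CPM with ASO081 and 81.8 ± 1.12 CPM with PBS (SD, n = 2 each; 0.26 ± 0.05, adjusted p = 0.00445), and MAGEB2 averaged 84.4 ± 4.25 CPM with ASO081 and 69.1 ± 1.55 CPM with PBS (SD, n = 2 each; 0.29 ± 0.06, adjusted p = 0.00416). In each of these 4 genes both ASO081 libraries lay above both PBS libraries. MAGEA2 (0.87, adjusted p = 0.0593), MAGEB6 (0.39, adjusted p = 0.441), MAGEA9B (0.28, adjusted p = 0.172), MAGEA11 (0.13, adjusted p = 0.172), MAGEA2B (0.05, adjusted p = 0.949), MAGEA4 (-0.07, adjusted p = 0.475) and MAGEA4-AS1 (-0.32, adjusted p = 0.213) did not pass. Without PBS replicate 1 the call for MAGEA3 was lost (adjusted p = 0.0789), and only 6 members of the whole set were called, against 10 with all libraries.

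Of 10 MAGE genes 8 rose in the KO line. The MAGE sum was 25841, 25139 and 25414 normalised reads in the KO line, against 15835, 16363 and 15888 in the parental line. MAGEA6 had 5272, 5123 and 5239 normalised reads in the KO line, against 1949, 1911 and 1957 in the parental line (1.43 ± 0.04, adjusted p = 2.53e-14). MAGEA3 had 8201, 7995 and 7902 normalised reads in the KO line, against 5280.4, 5687 and 5451 in the parental line (0.55 ± 0.04, adjusted p = 1.25e-09). MAGEB6, nearly silent in parental cells, had 31, 37 and 22 recovered reads in the KO libraries, against 7, 7 and 7 in the parental libraries (1.92 ± 0.31, adjusted p = 3.3e-05). MAGEB6 passed the read limit only in the KO libraries, so the limit favours this rise. MAGEA11 (0.89), MAGEA2 (0.89), MAGEA4 (0.75), MAGEB2 (0.70) and MAGEA12 (0.17) also rose, with adjusted p between 4.23e-10 and 0.00214. MAGEA9B fell (-0.18, adjusted p = 0.00553), and MAGEA2B did not pass (0.50, adjusted p = 0.294). The call for MAGEA12 rests on the scaling, since edgeR on the recovered reads gave -0.11 with upper quartile factors (adjusted p = 0.0168) and 0.13 with TMM factors (adjusted p = 0.00497). Relative to limma, upper quartile factors moved the median of all features by -0.28 and TMM factors by -0.04. Markers outside the set also differed between the lines: of the 2 listed leukocyte markers, CD68 had 10743, 10219 and 10803 normalised reads in the KO line, against 1329.8, 1318 and 1365 in the parental line, while CD14 had 9.91, 10.4 and 11.4, against 109, 59.8 and 98.2. The 7 squamous epithelial markers summed to 67616 to 68596 normalised reads in the KO line, against 40632 to 41870 in the parental line. KRT5, KRT14, KRT17, KRT6A and CDH1 were higher in every KO library, and EPCAM overlapped between the lines. TP63 was lower, at 1016, 1075 and 1032 normalised reads in the KO line against 1182, 1155 and 1192. The 3 listed fibroblast markers summed to 525 to 597 in the KO line, against 1934 to 2074. Mitochondrial genes took 4.83% to 4.89% of reads in the KO line, against 15.0% to 15.7% in the parental line. Their part in the KO results was not tested.

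Near-identical copies limit some of these values. MAGEA2 shares 96.4% of its 50-base stretches with MAGEA2B, and MAGEA9B shares 84.7% with MAGEA9. KO replicate 2 had 2124 normalised reads of MAGEA2 and 1309 of MAGEA2B, while KO replicates 1 and 3 had 2861 and 2939 of MAGEA2 and 640.3 and 569.5 of MAGEA2B. With the copies summed, MAGEA2 and MAGEA2B together rose in the KO line (0.82 ± 0.04, adjusted p = 2.3e-11), and MAGEA3 and MAGEA6 together rose in the KO line (0.84 ± 0.03, adjusted p = 2.03e-12), with ASO081 (0.26 ± 0.06, adjusted p = 0.00618) and with siSMYD3 (0.19 ± 0.07, adjusted p = 0.0404) and fell with siUHRF1 (-0.15 ± 0.05, adjusted p = 0.00735). MAGEA4 overlaps MAGEA4-AS1 on the opposite strand, and whether counting used strand is not given in the sources used here.

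**Figure D2:**
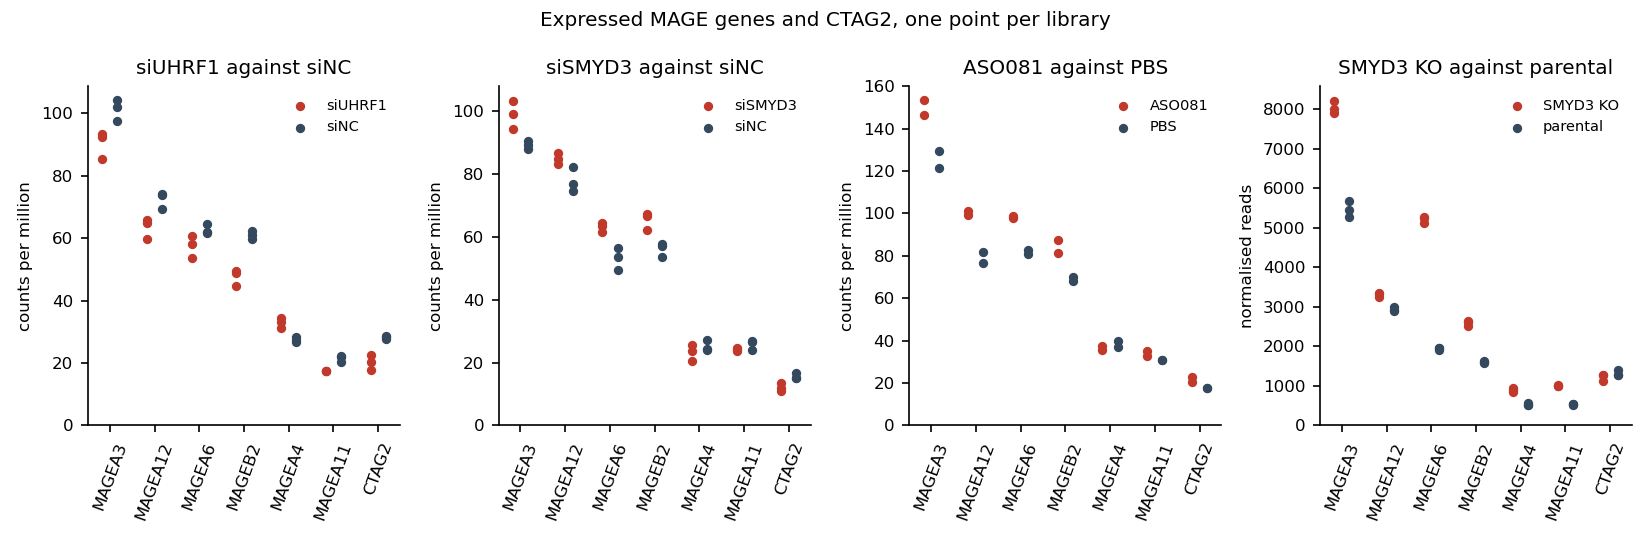
Levels of 7 expressed antigens in each library (points, depleted libraries left of their controls in each pair; CPM in the first 3 panels, normalised reads in the last; axes start at 0). MAGEA3 is the highest in each panel, between 85.3 and 153 CPM in the count tables, and MAGEA6 shows the widest gap in the KO panel.

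CTAG2 (LAGE-1, a relative of NY-ESO-1) fell with both siRNAs and rose with the oligonucleotide. It had 17.9, 22.5 and 20.4 CPM with siUHRF1, against 28.8, 28.2 and 27.6 CPM with siNC, with no overlap (-0.48 ± 0.07, adjusted p = 3.37e-08). It had 10.9, 13.6 and 11.9 CPM with siSMYD3, against 15.0, 15.0 and 16.5 CPM with siNC, again all lower (-0.36 ± 0.10, adjusted p = 0.00744). With ASO081 it had 20.4 and 22.7 CPM, against 17.5 and 17.6 CPM with PBS (0.30 ± 0.08, adjusted p = 0.0211), a call lost without ASO081 replicate 2, without PBS replicate 1 and with DESeq2 (adjusted p from 0.055 to 0.134). It averaged 1226 ± 89.2 normalised reads in the KO line and 1317 ± 74.2 in the parental line (SD, n = 3 each), which did not pass (-0.10, adjusted p = 0.119). CTAG2 shares 43.1% of its 50-base stretches with CTAG1A.

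SSX1, known as the fusion partner of SS18 in synovial sarcoma, was read in the KO line and hardly at all elsewhere. It had 17, 29 and 13 recovered reads in the KO libraries, against 0, 1 and 1 in the parental libraries. The ratio of summed reads was 29.3, with an exact 95% interval of 7.75 to 247 that covers counting error only, and the fitted change passed the test (3.66 ± 0.51, adjusted p = 6.7e-06). SSX1 passed the read limit only in the KO libraries, so the limit favours this rise. With ASO081 it had 1 and 2 reads, against 5 and 2 with PBS, and all 17 SSX genes together had 2 reads or fewer in each library of the siUHRF1 and siSMYD3 comparisons. SSX2IP, an SSX2-interacting centrosomal protein that is no cancer-testis antigen, fell with siUHRF1 (-0.60 ± 0.06, adjusted p = 5.33e-14) and with siSMYD3 (-0.52 ± 0.09, adjusted p = 0.00012), did not pass with ASO081 (0.06, adjusted p = 0.46) and rose slightly in the KO line (0.24 ± 0.05, adjusted p = 0.000176), where edgeR on the recovered reads gave -0.04 with upper quartile factors (adjusted p = 0.441) and 0.20 with TMM factors (adjusted p = 0.000515).

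The CTAGE genes share only a prefix with CTAG, and CTAGE4, CTAGE8 and CTAGE15 are each made to 97.4% or more of 50-base stretches found in other genes. All 3 fell in the KO line, CTAGE4 (-0.83 ± 0.06, adjusted p = 2.84e-09), CTAGE8 (-0.85 ± 0.09, adjusted p = 2.66e-07) and CTAGE15 (-0.33 ± 0.11, adjusted p = 0.0118), the last call being lost without parental replicate 2 (adjusted p = 0.0799). CTAGE4 had 898, 829.6 and 793 normalised reads in the KO line, against 1459, 1593 and 1445 in the parental line. In the siRNA and ASO081 comparisons none of them passed (log2 fold changes between -0.26 and 0.39, adjusted p between 0.249 and 0.604), and the summed copies had log2 fold changes of 0.01 with siUHRF1, -0.05 with siSMYD3 and 0.25 with ASO081.

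Of the 12 germline genes chosen by name, 9 stayed under the read limit in the siUHRF1, siSMYD3 and ASO081 comparisons. The shorter knockout table does not list these 9, so nothing is known of them in the KO line. DAZL, an RNA-binding translational regulator of germ cells, had 0 reads in all 6 libraries of the siUHRF1 comparison, as did DDX4 (the helicase VASA), TDRD1 (a piRNA pathway scaffold) and DPEP3 (a testis dipeptidase). ASZ1 and MAEL, also of the piRNA pathway, had 2 reads each in 1 siUHRF1 library and 0 in the other 5 libraries. PIWIL1, a piRNA-binding Argonaute protein, had 0 reads with siUHRF1 and 6 reads in 1 siNC library. SYCP3, of the synaptonemal complex that joins meiotic chromosomes, had 2, 2 and 0 reads with siUHRF1, against 18, 10 and 2 with siNC, and its partner SYCP1 had 0 reads with siUHRF1, against 2, 2 and 4 with siNC. With siSMYD3, MAEL had 1, 6 and 2 reads, against 14, 7 and 7 with siNC. DDX4 had 5, 5 and 4 reads with siSMYD3 against 9, 6 and 4 with siNC, and 3 and 4 reads with ASO081 against 0 and 2 with PBS. SYCP1 had 2 and 1 reads with ASO081, against 1 and 0 with PBS. These genes are too low for a test.

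The 3 named germline genes with enough reads, STK31, BRDT and PIWIL2, did not move together. STK31 encodes a Tudor-domain kinase of germ cells. It is set beside silent DAZL because RefSeq (GRCh38.p14) gives both CpG-rich starts: the 150 bases before STK31 lie at chr7:23710069-23710218 on the plus strand and hold 14 CpG sites, and those before DAZL lie at chr3:16605424-16605573 on the minus strand and hold 20 (5′ to 3′, CpG in capitals).
STK31: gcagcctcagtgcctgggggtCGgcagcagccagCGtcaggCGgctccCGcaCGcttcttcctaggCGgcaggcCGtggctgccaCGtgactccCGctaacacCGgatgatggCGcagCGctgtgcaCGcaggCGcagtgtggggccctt
DAZL: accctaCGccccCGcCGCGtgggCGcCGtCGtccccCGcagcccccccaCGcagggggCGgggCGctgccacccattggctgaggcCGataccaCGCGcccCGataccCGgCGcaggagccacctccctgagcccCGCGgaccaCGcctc

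STK31 fell in the KO line and with ASO081. It had 22.8, 14.1 and 26.7 normalised reads in the KO libraries, against 133, 119 and 127 in the parental libraries (-2.56 ± 0.22, adjusted p = 2.55e-08), and 6.20 and 6.03 CPM with ASO081, against 9.54 and 8.34 CPM with PBS (-0.55 ± 0.12, adjusted p = 0.006). With siSMYD3 it had 6.91, 5.50 and 6.62 CPM, against 6.04, 4.28 and 5.32 CPM with siNC, an overlap that did not pass (0.27, adjusted p = 0.104). With siUHRF1 it averaged 2.56 ± 0.24 CPM and with siNC 2.20 ± 0.30 CPM (SD, n = 3 each; 0.21, adjusted p = 0.286).

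BRDT, the testis member of the BET bromodomain family, ran in opposite directions with siSMYD3 and in the KO line. It had 5, 1 and 3 reads with siSMYD3, against 17, 10 and 15 with siNC, every siSMYD3 library being lower (-1.96 ± 0.45, adjusted p = 0.00198). It had 24, 40 and 22 recovered reads in the KO line, against 2, 5 and 6 in the parental line, every KO library being higher (2.53 ± 0.36, adjusted p = 9.65e-06). BRDT passed the read limit only in the siNC libraries of the siSMYD3 comparison and only in the KO libraries of the knockout comparison. The limit therefore favours both directions. With ASO081 it had 20 and 11 reads, against 29 and 27 with PBS (-0.76, adjusted p = 0.114), and with siUHRF1 46, 47 and 28 reads, against 35, 33 and 16 with siNC (0.65, adjusted p = 0.118), and neither passed.

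PIWIL2, another piRNA-binding Argonaute protein, rose with siUHRF1, at 2.62, 2.43 and 2.84 CPM with siUHRF1 against 2.01, 1.86 and 1.70 CPM with siNC (0.50 ± 0.18, adjusted p = 0.0132). It fell with siSMYD3, at 0.803, 0.684 and 0.514 CPM with siSMYD3 against 1.07, 0.767 and 1.20 CPM with siNC, the groups overlapping (-0.64 ± 0.25, adjusted p = 0.0414). PIWIL2 also rose in the KO line, at 46.6, 33.5 and 63.6 normalised reads against 32.6, 24.6 and 27.9 in the parental line (0.70 ± 0.25, adjusted p = 0.0164), and with ASO081 it did not pass (-0.33, adjusted p = 0.327). Each of the 3 calls was lost in some alternatives, 2 for siUHRF1 (adjusted p from 0.0506 to 0.0644), 5 for siSMYD3 (0.0726 to 0.183) and 3 for the KO line (0.0572 to 0.113).

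**Figure D3:**
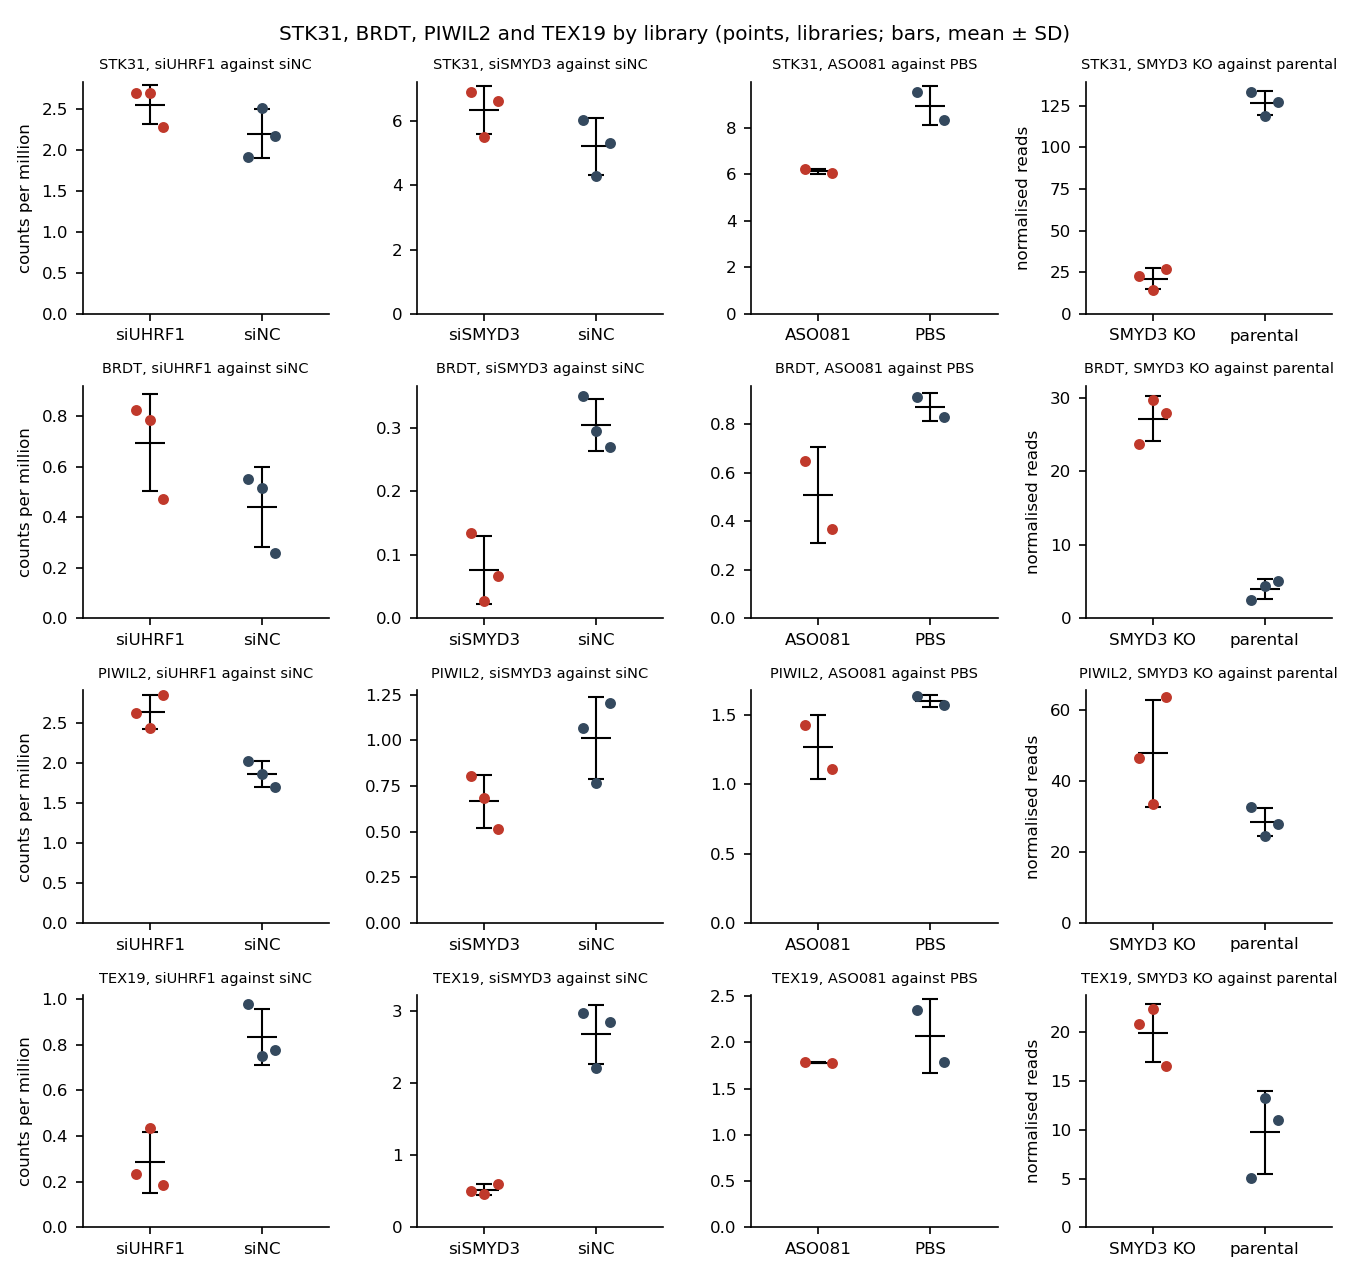
Levels of STK31, BRDT, PIWIL2 and TEX19 (rows) in each library of the 4 comparisons (columns; points are libraries, bars mean ± SD, axes start at 0). STK31 is lower in all KO and ASO081 libraries, BRDT is lower in all siSMYD3 libraries and higher in all KO libraries, and TEX19 is lower in all libraries of both siRNAs.

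The TEX prefix (testis-expressed) joins unrelated genes. The larger falls with siUHRF1 were among them: 6 of 11 tested TEX genes fell. TEX30 had 6.17, 9.17 and 7.95 CPM with siUHRF1, against 32.9, 28.8 and 32.2 CPM with siNC (-2.01 ± 0.09, adjusted p = 1.36e-21). TEX2, which encodes a lipid transfer protein of the endoplasmic reticulum, averaged 27.1 ± 1.72 CPM with siUHRF1 and 66.5 ± 1.17 CPM with siNC (SD, n = 3 each; -1.30 ± 0.06, adjusted p = 2.2e-27). TEX9 had 1.26, 1.34 and 1.20 CPM with siUHRF1, against 3.16, 2.45 and 3.43 CPM with siNC (-1.25 ± 0.19, adjusted p = 8.95e-08). None of the siUHRF1 libraries reached a siNC library in these 3 genes.

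TEX19, which restrains transposons in mouse germ cells, had 13, 26 and 11 reads with siUHRF1, against 62, 48 and 48 with siNC (-1.54 ± 0.38, adjusted p = 0.000357). TEX14, needed for the bridges between mouse spermatocytes, had 12, 12 and 34 reads with siUHRF1, against 49, 59 and 58 with siNC (-1.40 ± 0.37, adjusted p = 0.000901). TEX261 averaged 57.9 ± 2.52 CPM with siUHRF1 and 77.8 ± 1.90 CPM with siNC (SD, n = 3 each; -0.42 ± 0.05, adjusted p = 2.79e-10). At the other end, TEX37 (1.00, adjusted p = 0.119), TEX21P (0.28, adjusted p = 0.384) and TEX264 (0.10, adjusted p = 0.208) did not pass. TEX9 and TEX14 overlap annotated genes on the other strand. Beside these falls, AMH, a marker in the list for testis, had 169, 180 and 151 reads with siUHRF1, against 1165, 1176 and 1045 with siNC. The 5 fibroblast markers summed to 504 to 579 CPM with siUHRF1, against 118 to 119.6 CPM with siNC, but did not move together. COL1A1 had 554, 482 and 477 CPM with siUHRF1, against 81.7, 83.5 and 81.2 with siNC. PDGFRB was lower, at 9.21, 7.98 and 9.07 CPM against 20.5, 20.1 and 19.1. LUM overlapped between the groups, and COL3A1 and DCN had at most 4 reads in any library. The part of these markers in the result was not tested.

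**Figure D4:**
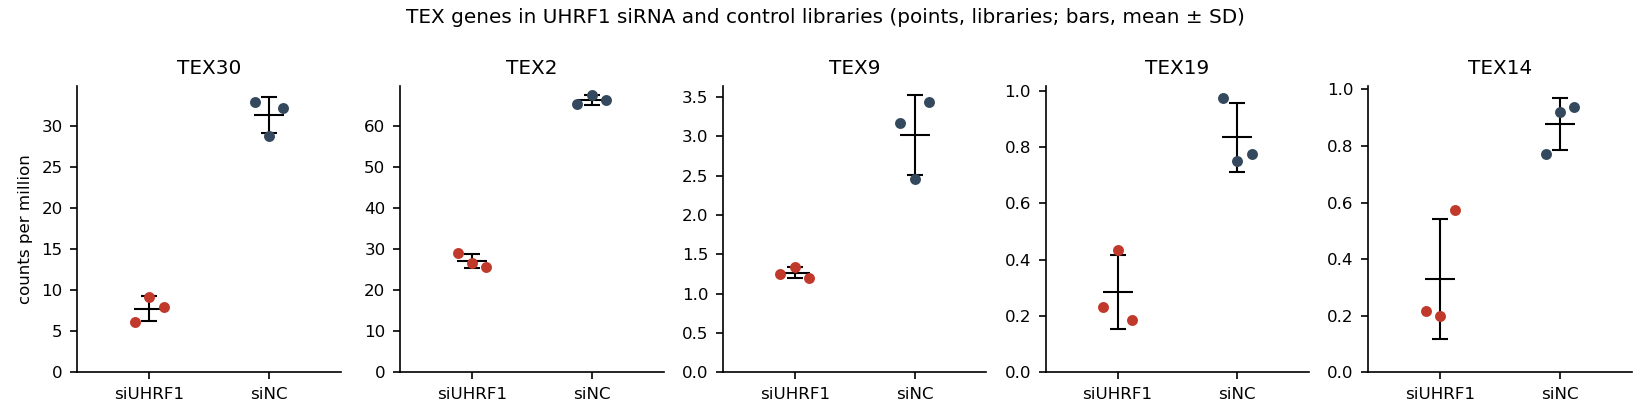
CPM of the 5 TEX genes with the largest falls under UHRF1 siRNA (points are libraries, bars mean ± SD, n = 3 each, axes start at 0). Every siUHRF1 library lies below every siNC library, with TEX30 at 6.17 to 9.17 against 28.8 to 32.9 CPM.

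With siSMYD3, TEX19, TEX37 and TEX48 fell, and TEX2 and TEX261 rose. TEX19 had 19, 17 and 27 reads with siSMYD3, against 145, 75 and 159 with siNC, or 0.509, 0.465 and 0.604 CPM against 2.98, 2.21 and 2.86 CPM (-2.34 ± 0.20, adjusted p = 3.36e-07). TEX48 had 1, 7 and 10 reads with siSMYD3, against 36, 21 and 40 with siNC (-2.19 ± 0.39, adjusted p = 0.00024), and TEX37 had 5, 8 and 2 reads with siSMYD3, against 26, 12 and 20 with siNC (-1.70 ± 0.42, adjusted p = 0.00358). In all 3 genes the groups did not overlap. TEX37 and TEX48 passed the read limit only in the siNC libraries, so the limit favours their falls. TEX2 averaged 62.3 ± 1.93 CPM with siSMYD3 and 44.8 ± 2.66 CPM with siNC (SD, n = 3 each; 0.48 ± 0.07, adjusted p = 8.67e-05), and TEX261 averaged 93.3 ± 5.81 CPM with siSMYD3 and 66.1 ± 3.44 CPM with siNC (SD, n = 3 each; 0.50 ± 0.08, adjusted p = 6.59e-05). TEX41 had 13, 13 and 18 reads with siSMYD3, against 11, 8 and 13 with siNC, and did not pass (0.67, adjusted p = 0.0748). The 5 fibroblast markers summed to 222 to 265 CPM with siSMYD3, against 134 to 157 CPM with siNC, and mitochondrial genes took 5.73% to 6.78% of reads, against 6.63% to 10.2%. Their part in the result was not tested.

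ASO081 raised 4 TEX genes. TEX10, part of a nuclear complex of ribosome biogenesis, had 65.4 and 72.6 CPM with ASO081, against 50.6 and 55.6 CPM with PBS (0.38 ± 0.07, adjusted p = 0.002). TEX264, a receptor for autophagy of the endoplasmic reticulum, had 32.5 and 30.9 CPM with ASO081, against 26.7 and 26.5 CPM with PBS (0.25 ± 0.07, adjusted p = 0.0183), and TEX30 had 32.1 and 32.4 CPM with ASO081, against 28.4 and 26.7 CPM with PBS (0.23 ± 0.07, adjusted p = 0.0296). TEX101, a surface protein needed for sperm function in mice, had 19 and 16 reads with ASO081, against 7 and 10 with PBS (1.12 ± 0.38, adjusted p = 0.0499), a call lost in 7 alternatives (adjusted p from 0.0533 to 0.236). TEX101 passed the read limit only in the ASO081 libraries, so the limit favours this rise. TEX37 (0.69, adjusted p = 0.261), TEX14 (-0.56, adjusted p = 0.0696), TEX22 (-0.27, adjusted p = 0.665) and TEX21P (-0.27, adjusted p = 0.407) did not pass. TEX264 and TEX30 each lost their call in 3 alternatives (adjusted p from 0.0544 to 0.0701 and from 0.0652 to 0.147).

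Of 11 TEX genes 4 rose and 4 fell in the KO line. TEX10 had 3954, 3923 and 3820.2 normalised reads in the KO line, against 1459, 1437 and 1408 in the parental line (1.44 ± 0.04, adjusted p = 5.06e-14). TEX261 (1.23 ± 0.04, adjusted p = 1.75e-13) and TEX2 (0.96 ± 0.05, adjusted p = 2.03e-11) rose as they did with siSMYD3. TEX19 rose, with 21, 30 and 13 recovered reads in the KO line, against 4, 15 and 13 in the parental line (1.04 ± 0.37, adjusted p = 0.0163), a call lost in 4 alternatives (adjusted p from 0.0528 to 0.0745). TEX21P, a pseudogene (-1.84 ± 0.29, adjusted p = 2.45e-05), TEX101 (-1.32 ± 0.40, adjusted p = 0.00648), TEX9 (-0.64 ± 0.12, adjusted p = 9.7e-05) and TEX30 (-0.52 ± 0.06, adjusted p = 3.5e-07) fell. TEX19 passed the read limit only in the KO libraries, and TEX21P and TEX101 only in the parental ones, so the limit favours their directions. TEX40, the older symbol of CATSPERZ, a subunit of a sperm calcium channel, had 51.5, 37.2 and 53.4 normalised reads in the KO line, against 42.7, 30.8 and 38.1 in the parental line, and did not pass (0.34, adjusted p = 0.156). TEX264 (0.11, adjusted p = 0.0729) and TEX14 (-0.18, adjusted p = 0.485) did not pass either, and edgeR on the recovered reads gave TEX264 -0.17 with upper quartile factors (adjusted p = 0.00909) and 0.07 with TMM factors (adjusted p = 0.266).

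The knockout table names TEX48 and MAGEA4-AS1 by clone, so the symbol rule misses them there. Matched by Ensembl identifier, TEX48 had 3, 6 and 3 recovered reads in the KO line, against 17, 30 and 26 in the parental line (-2.36 ± 0.36, adjusted p = 1.89e-05), lower in every KO library, as in every siSMYD3 library. TEX48 passed the read limit only in the parental line and in the siNC libraries of the siSMYD3 comparison, so the limit favours both falls. With ASO081 it had 86 and 78 reads, against 83 and 69 with PBS (0.20, adjusted p = 0.477). MAGEA4-AS1 had 34, 37 and 16 recovered reads in the KO line, against 32, 85 and 73 in the parental line (-1.07 ± 0.26, adjusted p = 0.00123).

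Of the 27 members tested in all 3 SMYD3 comparisons, MAGEA6 and MAGEB2 were called higher in each, beside 3.58% of the 12976 features tested in all 3, and no member was called lower in each, beside 2.01% of features. Between the 2 knockdowns of SMYD3, 9 of 31 members differed, beside 40.3% of 16611 features. Both genes were lower with siUHRF1. The difference between the siUHRF1 effect and an SMYD3 effect was tested on the 16 count libraries. Against the siSMYD3 effect, 14 of 29 members differed, beside 57.4% of 16611 features, and 9 of the 14 were lower with siUHRF1. TEX30 (-1.85 ± 0.15, adjusted p = 6.63e-11), TEX2 (-1.76 ± 0.09, adjusted p = 4.11e-15), TEX9 (-1.53 ± 0.21, adjusted p = 4.67e-07) and MAGEB2 (-0.56 ± 0.08, adjusted p = 1.82e-06) were relatively lower with siUHRF1, and TEX37 (2.69 ± 0.72, adjusted p = 0.00222), BRDT (2.62 ± 0.65, adjusted p = 0.00108) and PIWIL2 (1.15 ± 0.30, adjusted p = 0.00159) relatively higher. TEX37 passed the read limit only in the siUHRF1 libraries of the first comparison, and TEX37 and BRDT only in the siNC libraries of the siSMYD3 comparison, so the limit itself favours the direction of these differences. Against the ASO081 effect, 17 of 29 differed, beside 54.5% of features, 13 of them lower with siUHRF1, among them TEX30 (-2.23 ± 0.16, adjusted p = 8.18e-12), CTAG2 (-0.77 ± 0.14, adjusted p = 2.6e-05), MAGEB2 (-0.64 ± 0.09, adjusted p = 1.92e-06) and MAGEA12 (-0.53 ± 0.09, adjusted p = 2.64e-05). STK31 was relatively higher with siUHRF1 than with ASO081 (0.77 ± 0.22, adjusted p = 0.00445). Each effect comes from its own table with its own controls, and the labels do not say whether the libraries were sequenced together. A difference between tables can therefore also hold what the experiments do not share, and that part was not tested.

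Some members under the read limit were picked for a difference of 2-fold or more in reads between groups, without a test. With siUHRF1, MAGEA8-AS1 had 15, 6 and 14 reads against 0, 2 and 4 with siNC, and CTAGE11P had 12 reads in all against 2, TEX45 22 against 10, TEX12 16 against 8, TEX13C 10 against 2, TEX43 6 against 1, PAGE2B 6 against 0, TEX38 5 against 0 and CTAGE3P 4 against 0. Fewer reads with siUHRF1 than with siNC were found for MAGEA9 (8 against 21), MAGEC3 (2 against 6), TEX49 (0 against 8), TEX13B (0 against 6), TEX15 (0 against 6), MAGEA1 (0 against 4) and TEX33 (0 against 4). All siUHRF1 reads of PAGE2B and of TEX43 came from 1 library each. The same held for the siNC reads of MAGEC3, TEX49, TEX13B, MAGEA1 and TEX33. With siSMYD3, more reads than with siNC were found for CTAGE11P (18 against 7), TEX11 (9 against 3), TEX12 (8 against 4), MAGEC3 (7 against 3) and CTAGE13P (4 against 0), and fewer for PAGE2B (17 against 43), PAGE2 (5 against 12), CTAGE6 (1 against 6), CTAGE3P (1 against 5), TEX15 (0 against 5), TEX13A (0 against 3) and TEX36 (0 against 3). With ASO081, fewer reads than with PBS were found for TEX46 (9 against 22), TEX15 (4 against 11), TEX38 (3 against 7), MAGEC1 (2 against 5), SSX6P (1 against 3), TEX41 (0 against 5), TEX33 (0 against 3) and TEX49 (0 against 3). PAGE2B, the most read GAGE, PAGE or XAGE gene in the siSMYD3 table, had 9, 3 and 5 reads with siSMYD3, against 13, 9 and 21 with siNC.

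Germline genes outside the set moved in both directions in each comparison. Of 63 other germline genes on a list, 22 were tested with siUHRF1, and 9 rose and 7 fell (median log2 fold change 0.22), beside 33.2% and 33.9% of all features. NLRP7, a maternal-effect gene (1.69 ± 0.20, adjusted p = 1.25e-10), and MEI1, a meiotic recombination gene (1.47 ± 0.32, adjusted p = 6.13e-05), rose. RAD21L1, a meiotic cohesin (-1.92 ± 0.62, adjusted p = 0.00553), fell, and DMC1, the meiotic recombinase, had 0 reads with siUHRF1 against 54 with siNC, at least 8.30-fold lower with the counts halved, or 16.6-fold as deposited, if 3 reads over the group are taken as the floor. With siSMYD3, 3 of 27 rose and 15 fell (median -0.45), beside 25.9% and 24.5% of all features: TDRD6 (-1.24 ± 0.27, adjusted p = 0.00124), NANOS3 (-1.15 ± 0.43, adjusted p = 0.0366), TDRD5 (-1.09 ± 0.20, adjusted p = 0.000363) and SYCP2 (adjusted p = 0.000211), at 1.42 ± 0.15 CPM with siSMYD3 and 2.86 ± 0.50 CPM with siNC (SD, n = 3 each), were among the falls. With ASO081, 4 of 26 rose and 3 fell (median -0.00), beside 11.6% and 10.6% of all features, SYCP2 (-0.79, adjusted p = 0.0212) and PRDM9 (-0.72, adjusted p = 0.00129) falling and TDRD7 (0.77, adjusted p = 9.83e-07) and REC8 (0.43, adjusted p = 0.00135) rising. The KO line had 6 of 21 higher and 13 lower (median -0.52), beside 42.5% and 42.8% of all features. SYCP2, of the synaptonemal complex, had 3 reads in the KO line against 93 in the parental line (parental over KO ratio 31.3, exact 95% interval 10.4 to 154), TDRD6 had 2 against 56 (28.2, interval 7.46 to 239), SYCE2 fell (-2.39 ± 0.36, adjusted p = 1.67e-05) and PRDM9, which places meiotic crossovers, rose (2.11 ± 0.11, adjusted p = 6.03e-11).

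Other cancer-testis antigens outside the set, 51 on a list, also included genes that rose and genes that fell in each comparison, read against the same shares of all features. With siUHRF1, 8 of 21 rose and 6 fell (median 0.38), beside 33.2% and 33.9%, with KDM5B (1.71, adjusted p = 2.81e-35) and COX6B2 (1.61, adjusted p = 1.64e-17) rising and OIP5 (-2.63, adjusted p = 5.21e-28) and SPA17 (-2.07, adjusted p = 7.65e-20) falling. With siSMYD3, 6 of 23 rose and 12 fell (median -0.23), beside 25.9% and 24.5%, COX6B2 (-1.66, adjusted p = 2.87e-07), SPAG17 (-1.37, adjusted p = 2.33e-05), PRAME (-1.31, adjusted p = 5.71e-08) and LDHC (-1.07, adjusted p = 0.00133) having the largest changes. With ASO081, 2 of 25 rose and 3 fell (median -0.11), beside 11.6% and 10.6%: FATE1 (35 against 13 reads, adjusted p = 0.0194) and CSAG1 (0.25, adjusted p = 0.0123) rose, and COX6B2 (-0.62, adjusted p = 0.000954) and POTEE (-0.57, adjusted p = 0.0437) fell. Of these antigens 5 of 23 rose in the KO line and 12 fell (median -0.21), beside 42.5% and 42.8%, with DDX53 rising (4.41, adjusted p = 1.31e-09) and SAGE1 (-1.98, adjusted p = 4.03e-13), PLAC1 (-1.31, adjusted p = 3.12e-05) and CAGE1 (-1.24, adjusted p = 7.27e-05) falling.

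A list of 28 genes drawn up for repression of germline genes also holds the demethylases TET1, TET2 and TET3, so its counts mix opposing functions. All 28 were tested in each comparison. With siUHRF1 11 rose and 10 fell, near the 33.2% and 33.9% of all features, and the falls include the target of the siRNA. UHRF1 itself (-4.85), the DNA methyltransferase DNMT3B (-2.49, adjusted p = 9.12e-31), the E2F partner TFDP1 (-1.48, adjusted p = 7.29e-32) and DNMT1 changed the most. With siSMYD3, 4 rose and 4 fell, beside 25.9% and 24.5%: UHRF1 fell and the demethylase TET2 (0.46, adjusted p = 0.000489), MGA, which directs a Polycomb complex to germline genes (0.42, adjusted p = 0.000473), and SMCHD1 (0.32, adjusted p = 0.00707) rose. With ASO081, 9 rose and 2 fell, beside 11.6% and 10.6%, among them SMCHD1 (0.47, adjusted p = 0.00016), L3MBTL2 of the same Polycomb complex (0.38, adjusted p = 0.00123) and UHRF1 higher and TET1 (-0.47, adjusted p = 0.0127) lower. The KO line had 19 higher and 8 lower, beside 42.5% and 42.8%, with WDR5 higher (1.34, adjusted p = 1.47e-13) and DNMT3A (-1.54, adjusted p = 1.34e-10), DNMT3B (-1.36, adjusted p = 7.62e-11) and TET1 (-0.93, adjusted p = 0.000153) lower.

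Promoter entries of tested members had a higher median of CpG sites than those of untested members. RefSeq (GRCh38.p14) gave 120 promoter entries for 97 of the 148 members. The 36 entries of tested members had a median of 14 CpG sites in the 250 bases before the start, the 84 entries of untested members a median of 8, and all 35116 entries a median of 11. The highest tested entries were those of SSX2IP (26), TEX10 (21 and 37), TEX261 (27), TEX30 (29), TEX2 (31) and TEX264 (35). Another TEX2 entry had 0. Tested MAGE entries ran from 1 (MAGEB3) to 18 (MAGEA11), and SSX1 had 3. Some members, such as MAGEA4, have more than 1 entry. The higher median therefore describes the set chosen by symbol. Whether it holds for its cancer-testis and germline genes alone was not tested. The 30 entries of GAGE, PAGE and XAGE genes had a median of 8 (range 4 to 14), and the 15 entries of the named germline genes a median of 19 (range 0 to 51), although most of those genes were under the read limit. The E2F-type motif GGCGGGA stood on either strand in 28.3% of member entries and 13.5% of all entries, and in 66.7% of GAGE, PAGE and XAGE entries. The E-box CACGTG, which does not overlap in letters with GGCGGGA, was found in 18.3% of member entries and 6.34% of all entries, and in 53.3% of the entries of named germline genes, among them STK31, BRDT, DAZL, MAEL, TDRD1 and DPEP3. DAZL and MAEL also have an entry without the E-box, and the DAZL stretch shown above comes from such an entry. MAGE entries held neither motif. Entries of the same family share sequence, so these shares are descriptions without a test.

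**Figure D5:**
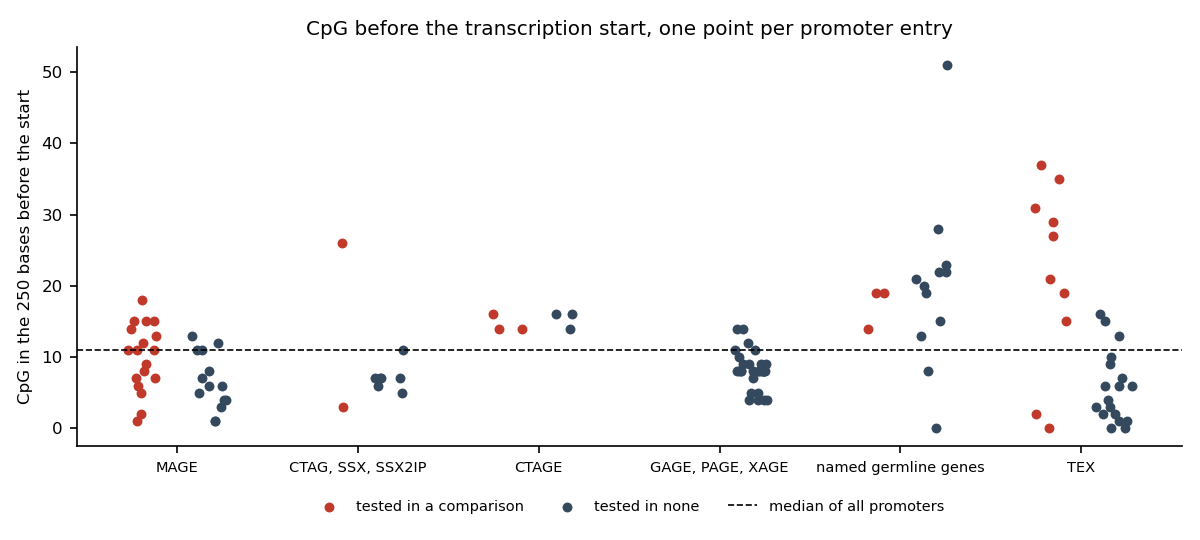
CpG sites in the 250 bases before the start (y axis), 1 point per RefSeq promoter entry, by gene group (x axis), for genes tested in a comparison and in none. The dashed line is the median of all promoters, 11; untested GAGE, PAGE and XAGE entries lie between 4 and 14, and entries of named germline genes reach 51.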

How the data were processed

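Per the labels, the libraries were stranded and poly(A)-selected. Per the submitters' processing notes, bcl2fastq and Bowtie were used with build hg38. What counted the reads, and on which annotation, is not given in the sources used here, nor are versions. The siUHRF1, siSMYD3 and ASO081 tables hold raw counts per gene as deposited. Values of the knockout table are a deposited signal, gene counts scaled by the authors with a single factor in each library. Whole reads were recovered for every value (within 0.01) from the smallest step of each column. The planned count test was therefore replaced there by limma 3.58.1 (trend, robust) on log2(value + 1), a scale that understates changes of low genes, with edgeR on the recovered reads as an alternative, which called 26 members.

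Count tables were tested with edgeR 4.0.16 (TMM, robust quasi-likelihood, R 4.3.3), each comparison alone, on features with 10 or more reads in all libraries of a group. P-values are two-sided and Benjamini-Hochberg adjusted over all features. SEs of edgeR values are the fold change divided by the square root of F. Alternatives were DESeq2, upper quartile factors, other filters and pseudocounts, no mitochondrial genes, a replicate block and leaving out each library. The code was tested on simulated data. Lines without a symbol carried 0.849% to 0.917% of siSMYD3 reads and were named by Ensembl identifier. Shared stretches and overlaps come from GENCODE release 29. Whether the biological replicates came from separate cultures is not stated, so p-values measure the spread between these libraries.

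The members and gene lists were chosen with earlier results of these data known. Named are all tested members that were called or belong to the antigen families or the named germline genes, the extreme TEX genes, untested members with 3 or more reads and a difference of 2-fold, and up to 4 called genes per list. Summed near-identical copies, halved siUHRF1 counts and the siSMYD3 minus ASO081 difference were added after seeing the data.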

Additional observations from a re-analysis of the deposited data

Results flagged for a closer look

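The 2 knockdowns of SMYD3 in the same cells differed in 9 of 31 members tested in both, beside 40.3% of 16611 features (edgeR contrast on the 16 count libraries, chosen after seeing the data). With siSMYD3, TEX37 and TEX48 passed the read limit only in the siNC libraries, and with ASO081 TEX37 passed only in the ASO081 libraries, so the limit favours a negative difference for both. The siSMYD3 effect minus the ASO081 effect (log2) was -2.39 for TEX48 (adjusted p = 0.00257), -2.39 for TEX37 (adjusted p = 0.014), -2.13 for TEX19 (adjusted p = 6.18e-05), -0.66 for CTAG2 (adjusted p = 0.000422), -0.59 for SSX2IP (adjusted p = 5.34e-05) and -0.53 for TEX10 (adjusted p = 4.38e-05). It was 0.31 for TEX261 (adjusted p = 0.0131), 0.51 for TEX2 (adjusted p = 0.000161) and 0.82 for STK31 (adjusted p = 0.00274).

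The KO line and a knockdown moved opposite ways in 5 members, called in both with every library on its side; these differences were not tested. BRDT rose by 2.53, TEX19 by 1.04 and SSX2IP by 0.24 (log2) in the KO line while each fell with siSMYD3. TEX30 changed by -0.52 and TEX101 by -1.32 in the KO line while each rose with ASO081. In the knockout comparison BRDT and TEX19 passed the read limit only in the KO libraries, and TEX101 only in the parental ones. BRDT passed with siSMYD3 only in the siNC libraries and TEX101 with ASO081 only in the ASO081 libraries. The limit therefore favours the directions given for these genes. SSX2IP had -0.04 in the KO line with upper quartile factors, and TEX19, TEX30 and TEX101 each lost a call in some alternatives.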

How the results depend on the processing

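Of the genes followed (tested members, SMYD3 and UHRF1), 15 of 18 calls held in every alternative with siUHRF1, 10 of 13 with siSMYD3, 7 of 12 with ASO081 and 21 of 27 in the KO line. Leaving out 1 library at a time gave 14 to 17 called members with siUHRF1, 9 to 13 with siSMYD3, 6 to 10 with ASO081 and 23 to 25 in the KO line, and 11425 to 11688, 7841 to 9261, 2788 to 4196 and 13881 to 14130 called features in the same order. It gave 13 to 15 members whose effect differed between siUHRF1 and siSMYD3 and 14 to 17 between siUHRF1 and ASO081. Where this left an ASO081 or PBS arm with 1 library, that library was assumed to vary like the others. With ASO081, DESeq2 called 6 members and 2442 features, against 10 and 4011 with edgeR. In the KO line edgeR on recovered reads gave MAGEA12 -0.11, SSX2IP -0.037 and TEX264 -0.17 (log2) with upper quartile factors, against 0.13, 0.20 and 0.07 with TMM factors. The cause was not tested. Same-numbered libraries correlated in their deviations at -0.03, -0.06 and 0.05 (siUHRF1), 0.22, 0.37 and -0.08 (siSMYD3), and 0.11, 0.22 and -0.03 (KO), and in none of these did every library correlate best with its own number. With ASO081 same-numbered pairs stood at 0.33 and the others at -0.33, over 2 pairs only. With 2 libraries per group the deviations mirror each other, so these values are a single correlation whose opposite signs are forced. The labels give no pairing and none was assumed. With the replicate block 17, 12, 13 and 24 members were called for siUHRF1, siSMYD3, ASO081 and KO, with 6923 features for ASO081, against 4011 without it, and 14 and 17 members differed as before. Alternatives were not run for the siSMYD3 minus ASO081 difference. Low counts limit BRDT, TEX19, TEX48, TEX37, TEX101, SSX1 and MAGEB6.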
